A study of Rattus norvegicus with 18 samples.

Results

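The heat shock genes described here numbered 10, and all 10 were found among the 17455 genes of each expression table. They encode heat shock proteins and proteins that work with them: Hsp90aa1 and Hsp90ab1, Hspa8 and Hspa9, Hspa4l and Hsph1, Dnajb1, Bag3, Hspb1 and Zfand2a. The genes were picked by name, with the RNA and m6A changes of both comparisons already known. Their changes are therefore given as a description of these libraries, and nothing is supported with them.

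All groups were wild-type H9c2, a myoblast line from rat heart: control, bufalin and periplocin. Both compounds are cardiotonic steroids, inhibitors of the Na/K pump; bufalin carries no sugar, whereas periplocin is a glycoside. The labels give neither dose nor time, so no response of one compound is compared with that of the other, and both comparisons share the control group. m6A, the N6-methylation of adenosine in mRNA, was read by MeRIP-seq, where an anti-m6A antibody captures methylated RNA fragments (IP) and an input library records the RNA without capture. Each of the 3 conditions had 3 IP and 3 input samples, 18 in all. Whether replicates came from separate cultures is not labelled, so the authors' p-values measure only the spread between these samples, which may be technical. Each gene or peak had 1 value per comparison, and values of single libraries were not analysed here.

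Heat shock proteins are chaperones, which bind unfolded proteins and let them fold or hand them over for breakdown. HSP70 proteins bind and release clients in a cycle driven by ATP, which J-domain proteins start and exchange factors such as HSP110 and BAG proteins reset. HSP90 takes over clients late in folding, many of them kinases and receptors, and small heat shock proteins hold unfolded proteins without ATP. Damaged protein frees heat shock factor Hsf1 from its chaperones, and Hsf1 then switches on many of these genes through the heat shock element, a run of inverted repeats of GAA in their promoters. In heart muscle this response is known to protect against heat, ischaemia and unfolded protein.

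The labelled cell type was checked against markers. Of 9 myoblast and striated muscle markers, 8 reached a mean normalized count of 10 for bufalin and 7 for periplocin, among them Des, Myod1, Cdh15 and Tnnt2, while Myf5 was listed at 0. Myog stood close to that mean, at 12.1 for bufalin and 9.98 for periplocin, and Cdh2 was low at 24.7 and 25.1. All 3 endothelial markers were under that mean, at most 5.07, and the leukocyte gene Ptprc stood at 1.06 and 2.28. Cd68, Cd14 and the epithelial keratin Krt8 were above it, with the highest mean at 1100 for Krt8, whereas Epcam and Cdh1 were at or below 1.52. At 1100 and 1064, Krt8 stood above Des (1037 and 983) and Myod1 (716 and 631). A mean of 10 alone therefore does not set the cell types apart. Over genes tested, the median of the mean normalized count was 663 for bufalin and 640 for periplocin. The members all lay above that, at 2012 or more and 2042 or more.

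Heat shock elements in the promoters are shown first, because they are the sequence that this group of genes is known for. Promoter windows of RefSeq on the GRCr8 build, 250 bases before to 50 after the start, were held for 9 of the 10 genes, all but Hsp90aa1. The 2-unit motifs GAANNTTC and TTCNNGAA, each its own reverse complement so that both strands were searched, lay in 8 of these 9 windows and in 15.9% of all 33469 windows of that length. The 3-unit heat shock element, in which a GAANNTTC and a TTCNNGAA overlap in either order by their shared TTC or GAA, was searched on both strands too and lay in the windows of Hspa8 and Hsph1 and in 0.798% of all windows. The window of Hsp90ab1 held none of these letters. The 2-unit match of Hspa4l lay after the start, at 38 to 45 bases, and that of Hspa9 lay at -84 to -77 and again at 17 to 24.

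The stretches below run 5′ to 3′ up to the last base before the start, with every match in capitals. Of the 7 promoters with a match before the start, 6 are printed, all but that of Hspa9. Hspa8 (chr8:50080294-50080513, plus strand) holds a pair of 3-unit matches, at -213 to -201 and -55 to -43, and Hsph1 (chr12:10427258-10427367, plus strand) a 2-unit and a 3-unit match. Hspb1 (chr12:26432302-26432441, minus strand) holds a pair of 2-unit matches. Zfand2a (chr12:20275230-20275449, plus strand), Bag3 (chr1:192533320-192533459, plus strand) and Dnajb1 (chr19:41431142-41431181, minus strand) hold 1 each before the start.
Hspa8: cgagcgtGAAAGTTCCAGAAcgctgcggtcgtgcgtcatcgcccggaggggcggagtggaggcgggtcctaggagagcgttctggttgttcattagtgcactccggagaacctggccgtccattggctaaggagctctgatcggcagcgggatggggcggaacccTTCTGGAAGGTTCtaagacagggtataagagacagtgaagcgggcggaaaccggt
Hsph1: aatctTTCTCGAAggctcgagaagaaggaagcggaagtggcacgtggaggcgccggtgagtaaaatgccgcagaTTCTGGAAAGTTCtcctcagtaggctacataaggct
Hspb1: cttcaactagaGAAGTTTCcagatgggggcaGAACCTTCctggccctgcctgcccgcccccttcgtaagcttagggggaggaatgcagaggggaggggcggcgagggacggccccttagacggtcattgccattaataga
Zfand2a: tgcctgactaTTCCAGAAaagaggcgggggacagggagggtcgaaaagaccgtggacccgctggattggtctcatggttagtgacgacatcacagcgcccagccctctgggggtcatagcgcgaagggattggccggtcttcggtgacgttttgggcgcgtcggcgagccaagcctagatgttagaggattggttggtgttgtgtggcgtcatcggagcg
Bag3: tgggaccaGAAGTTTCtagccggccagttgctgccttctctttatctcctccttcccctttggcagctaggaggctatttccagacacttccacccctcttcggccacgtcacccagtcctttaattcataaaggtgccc
Dnajb1: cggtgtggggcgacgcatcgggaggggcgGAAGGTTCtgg

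A match describes letters in a window, and whether these stretches bind a factor or bear on the RNA values was not tested.

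At the RNA level the heat shock genes stayed close to control with both compounds. With bufalin their fold of control ran from 0.902 for Hspb1 to 1.14 for Zfand2a, and no member passed the authors' adjusted p of 0.05. With periplocin it ran from 0.868 for Hspb1 to 1.47 for Zfand2a, and these 2 genes, at the ends of the range, were the members that passed. In bulk RNA, fewer cells that express a gene and less RNA per cell cannot be told apart. By the DESeq2 table of the authors, 0 of the 7 members with an adjusted p were called with bufalin, where 0.301% of all genes with one were called. At an unadjusted p under 0.05, 1 member was higher and 1 lower, beside 5.0% of all genes with a p. With periplocin 1 of 10 members was called higher and 1 lower, beside 0.538% of all genes, and at an unadjusted p under 0.05 these were 2 and 1, beside 6.25%. Since the members were picked with these values known, the counts describe the choice as well as the cells. The median log2 change over the members was 0.03 in both comparisons, beside 0.00 with bufalin and -0.00 with periplocin over all genes with a mean of at least 10.

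Zfand2a, an arsenite-inducible gene whose protein binds the proteasome, had the largest RNA change in both comparisons. Worked out from the deposited mean and fold change with both groups of equal size, its fitted level was 1989 normalized counts in control and 2272 with bufalin, and 1927 in control and 2836 with periplocin. The same controls differ because each table was normalized on its own, so a treated level is read against the control of its own table. The authors' deposited table gave a log2 change of 0.56 ± 0.11 (SE) for periplocin, with an adjusted p of 8.17e-05 by DESeq2, and 0.19 ± 0.14 with bufalin. As a fold of control this was 1.47 (95% Wald interval 1.27 to 1.70) with periplocin and 1.14 (0.942 to 1.39) with bufalin. The bufalin table holds no adjusted p for Zfand2a, because its mean of 2130 lies under 2259, the lowest mean with one; adjusted over all genes with a p by Benjamini-Hochberg, its value was 1.

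Hspb1, the small heat shock protein also known as HSP27, which holds unfolded proteins and stabilises actin filaments, went the other way. Its level was 7408 normalized counts in control and 6434 with periplocin, and 7647 and 6899 in the bufalin table. The authors' deposited table gave a log2 change of -0.20 ± 0.05 (SE) with periplocin, with an adjusted p of 0.0260 by DESeq2, and -0.15 ± 0.06 with bufalin, with an adjusted p of 0.381. The intervals of the fold were 0.808 to 0.933 with periplocin and 0.834 to 0.976 with bufalin. Both lie below 1, and the bufalin value did not pass over all genes. At an adjusted p of 0.01 only Zfand2a of the members was called, and the share of all genes called there was not worked out.

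Hsp90aa1, the stress-inducible cytosolic HSP90, was close to control in RNA with both compounds. Its level was 49394 normalized counts in control and 49572 with periplocin, and 50980 and 49078 with bufalin. The log2 changes in the authors' deposited table were 0.01 ± 0.04 (SE) with periplocin and -0.05 ± 0.05 with bufalin. Intervals of the fold were 0.951 to 1.06 and 0.901 to 1.03, so a change beyond 0.901-fold or 1.06-fold lies outside both intervals. Hsp90ab1, the constitutive HSP90 of the cytosol, was at 0.02 ± 0.03 with periplocin and 0.11 ± 0.06 with bufalin in the authors' deposited table. Its unadjusted p with bufalin was 0.0519 and its adjusted p 0.523.

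The HSP70 members were near control too. Hspa8, the constitutive HSP70 of the cytosol, had log2 changes of 0.04 ± 0.04 (SE) with periplocin and 0.06 ± 0.06 with bufalin in the authors' deposited table. Hspa9, the HSP70 of mitochondria, was at -0.09 ± 0.07 and 0.06 ± 0.09 in the same order in the authors' deposited table. Neither gene passed, and the intervals of all 4 folds held 1.

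Of the exchange factors, Hsph1, an HSP110 protein that resets HSP70 and is strongly heat-inducible, stood at 0.06 ± 0.04 (SE, log2) with periplocin and 0.01 ± 0.05 with bufalin in the authors' deposited table. Hspa4l, a further HSP110 protein, stood at -0.07 ± 0.10 and -0.07 ± 0.11 in the authors' deposited table. Bag3, which ties HSP70 to autophagy of damaged muscle proteins, had 5092 normalized counts in control and 5586 with bufalin, and 4933 and 5152 in the periplocin table. The authors' deposited table put Bag3 at 0.13 ± 0.06 (log2) with bufalin, with an unadjusted p of 0.0200 and an adjusted p of 0.464, and 0.06 ± 0.05 with periplocin.

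Dnajb1, the heat-inducible J-domain partner of HSP70, had 1986 normalized counts in control and 2210 with periplocin, and 2051 and 1973 in the bufalin table. The log2 change was 0.15 ± 0.08 (SE) with periplocin and -0.06 ± 0.09 with bufalin in the authors' deposited table. With periplocin the unadjusted p was 0.0471 and the adjusted p 0.759, so the change did not pass.

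**Figure D1:**
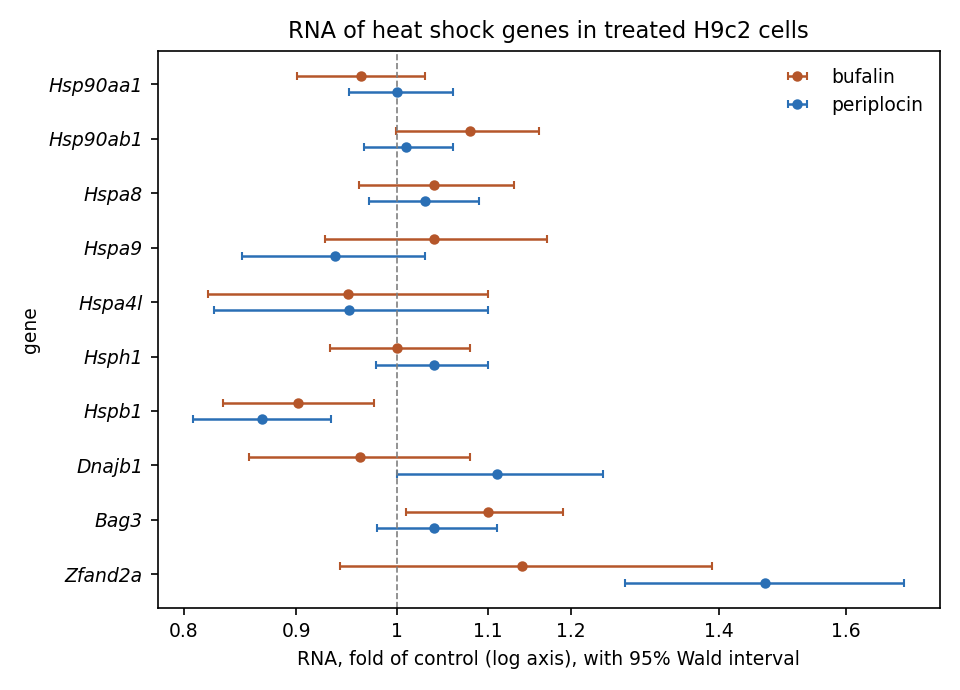
RNA of the 10 heat shock genes as a fold of control on a log axis, with points for the authors' estimate and bars for its 95% Wald interval, bufalin in brown and periplocin in blue. Zfand2a at 1.47 and Hspb1 at 0.868 with periplocin stand apart from a group that otherwise lies near 1.

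The rest of the heat shock and chaperone network was taken from 9 lists with 83 genes, 82 of them in the tables and none a member. Of these, 0 of 48 with an adjusted p were called with bufalin, beside 0.301% of all genes, and 0 of 80 with periplocin, beside 0.538%, by the DESeq2 tables of the authors. At an unadjusted p under 0.05, 4 were higher and 1 lower with bufalin, and 5 higher and 5 lower with periplocin, out of 80 with a p in each, beside 5.0% and 6.25% of all genes in either direction. The median log2 change of those with a mean of at least 10 was -0.00 (73 genes) and 0.00 (75 genes). With so few calls over all genes, the absence of calls in lists of this size is no result about the network.

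Hsf1 itself was listed in the authors' deposited table at -0.09 ± 0.10 (SE, log2) with bufalin and 0.02 ± 0.09 with periplocin. The stress-inducible HSP70 genes, whose RNA rises steeply after heat in most cells, had few or no counts. How reads shared by similar genes were counted was not tested, so low counts here need not mean little RNA. Hspa1a was listed at 0 in both tables, and Hspa1b had a mean normalized count of 6.52 for bufalin and 2.80 for periplocin. The authors' deposited table lists it at a log2 change of -4.91 ± 2.44 with periplocin (unadjusted p 0.0438), which rests on few counts and did not pass, at an adjusted p of 0.736.

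Partners in the endoplasmic reticulum, the HSP70 Hspa5 and the HSP90 Hsp90b1, stood at 0.19 ± 0.10 and 0.13 ± 0.08 (SE, log2) with bufalin in the authors' deposited table. With periplocin they were at 0.05 ± 0.07 and 0.02 ± 0.05 in the authors' deposited table. In mitochondria the chaperonin Hspd1 was at -0.09 ± 0.06 with bufalin and -0.01 ± 0.05 with periplocin, and its lid Hspe1 at 0.04 ± 0.06 and 0.03 ± 0.05, in the authors' deposited table. The small heat shock protein Cryab, the muscle partner of Hspb1, was at -0.15 ± 0.09 and -0.08 ± 0.07 in the authors' deposited table. None of these passed.

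Of the cytosolic co-chaperones, the J-domain protein Dnaja1 was given in the authors' deposited table as -0.10 ± 0.07 (SE, log2) with bufalin and 0.00 ± 0.06 with periplocin. Stip1, which hands clients from HSP70 to HSP90, was at -0.05 ± 0.04 and -0.01 ± 0.03 in the authors' deposited table. Hspa4, the nearest relative of Hspa4l, was at -0.00 ± 0.05 and -0.03 ± 0.04, and the exchange factor Bag1 at 0.09 ± 0.10 and -0.03 ± 0.05, in the authors' deposited table. Zfand2b, the relative of Zfand2a, was at -0.08 ± 0.14 and 0.04 ± 0.14 in the authors' deposited table.

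Some other genes of the network with an unadjusted p under 0.05 were named after their values were seen. Sqstm1, the autophagy receptor p62, was at 0.19 ± 0.06 (SE, log2; adjusted p 0.224) with bufalin and 0.17 ± 0.05 (adjusted p 0.0944) with periplocin, and the ubiquitin gene Ubb at 0.11 ± 0.05 and 0.09 ± 0.04, in the authors' deposited table. Dnaja4, a J-domain protein, stood at 0.20 in both comparisons, with SEs of 0.08 and 0.07, and Bag2, a BAG protein, at -0.36 ± 0.14 and -0.23 ± 0.10, in the authors' deposited table. Both comparisons share their control group, so values of the same sign in both are not independent.

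Among network genes with an unadjusted p under 0.05 for periplocin only, the HSP90 co-chaperone Ptges3 stood nearest the threshold. Its log2 change was -0.22 ± 0.06 (SE) with an adjusted p of 0.0571 by DESeq2 in the authors' deposited table. With bufalin it was at -0.02 ± 0.08 in the authors' deposited table. Zfand5, a ubiquitin-binding relative of Zfand2a, was at 0.20 ± 0.07 with periplocin (adjusted p 0.313), Dnajb14 at -0.22 ± 0.10 and the collagen chaperone Serpinh1 at -0.06 ± 0.03, in the authors' deposited table. For bufalin the authors' deposited table gave Zfand5 at 0.06 ± 0.10, Dnajb14 at -0.00 ± 0.12 and Serpinh1 at 0.02 ± 0.05. A difference between the compounds was not tested. At an adjusted p of 0.1 the network's called genes were 1 with bufalin and 2 with periplocin. The share of all genes called at 0.1 was not worked out, so these counts are no result about the network.

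**Figure D2:**
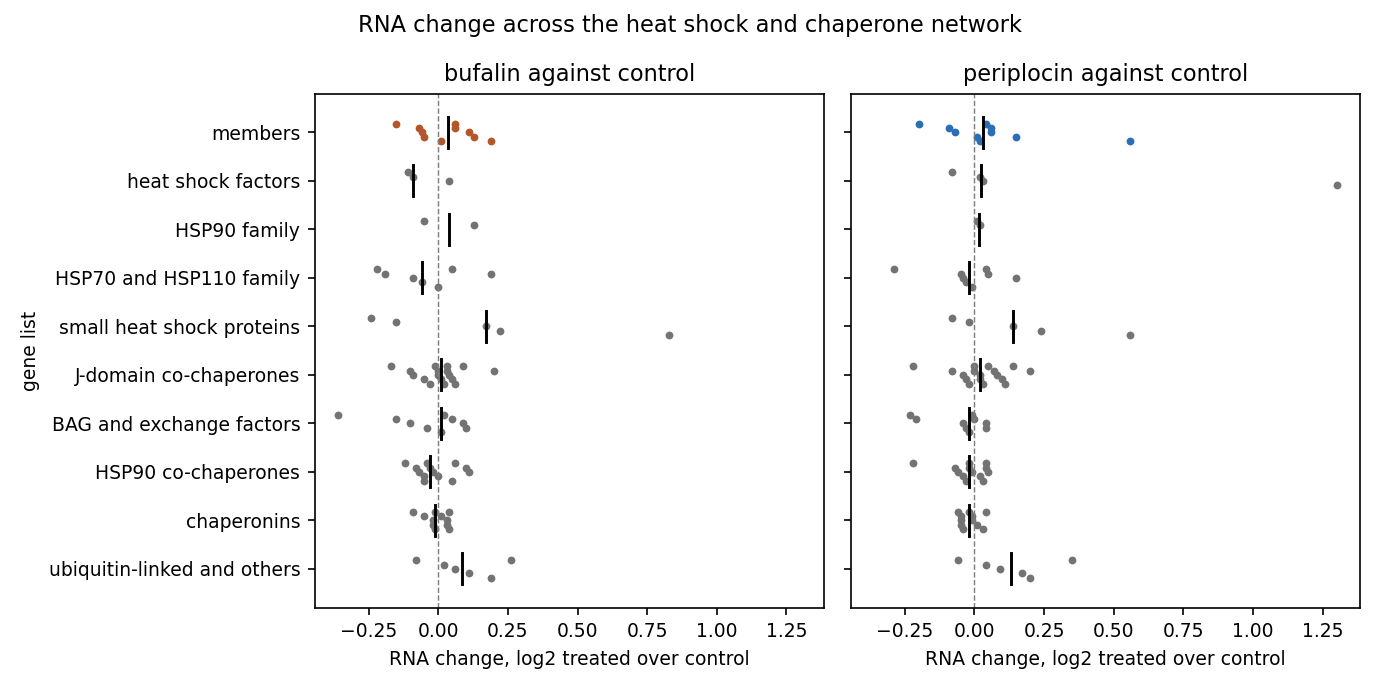
RNA change (log2, treated over control) of the heat shock members and of 9 lists of other chaperone genes with a mean of at least 10 normalized counts, bufalin on the left and periplocin on the right. Each point is a gene and each black bar the median of its list. Nearly all points lie close to 0, and the far point of the heat shock factors with periplocin is Hsf4, at 1.30 ± 0.86 (SE) in the authors' deposited table.

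By pattern over the 2 comparisons, the genes nearest to Hsp90aa1 were Triobp, Tubg1, Naa35 and Wfs1, at distances of 0.0015 to 0.0028 in the plane of both log2 changes. Of 6399 genes compared, 2716 lay within 0.1 of it. Being near Hsp90aa1 in this plane thus marks the many genes at control level and not a pattern of its own.

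In m6A, Hsp90aa1 had the widest values of the members. Its peaks ranked 8 and 12 by enrichment in the bufalin list and 5, 11 and 95 in the periplocin list. Its m6A change was below 0 at every peak, from a log2 change of -0.29 with bufalin to -3.16 with periplocin. The lowest value is from a peak of the periplocin list only, at a second locus whose limits are given below. Neither its RNA nor its m6A changes passed. No member peak passed the authors' FDR of 0.05. Fold enrichment of a peak, read as IP over input, and its change are the authors' own values. Each list gives a single enrichment per peak, and which samples enter it is not stated. It is therefore not read as the level of treated cells. The direction of the change is not stated in the lists and was read as treated over control. That reading rests on this count: where a peak stood identically in both lists and its changes differed by over 0.5 (log2), the list with the higher change also had the higher enrichment in 132 of 143 peaks.

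Of the 10 members, 9 had a peak in each list, with 20 peaks among 9866 for bufalin and 18 among 9170 for periplocin, and Hspb1 had none in either. Called at an FDR of the change under 0.05 were 0 of 20 and 0 of 18, beside 0.0304% of all peaks with bufalin and 0.0436% with periplocin. At an unadjusted p of the change under 0.05 there were 4 and 5 member peaks, beside 3.04% and 3.37% of all peaks. The tool behind these p-values is not named in the labels or headers. Of the 20 bufalin peaks 17 shared at least 1 base with a periplocin peak of the same gene, and of the 18 periplocin peaks 16 with a bufalin peak. Among all peaks 4787 stood identically in both lists. The share of all peaks with at least 1 shared base was not worked out, so these counts mark nothing particular to the members.

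Hsp90aa1 peaks lay at 2 loci of chromosome 6 on rn6, minus strand. At the first, the peak chr6:135048102-135048627 of the bufalin list had a fold enrichment of 6.74, ranked 12 of 9866, and in the authors' list a log2 change of -0.29 (p = 0.0398, FDR of 1). The periplocin list had chr6:135048102-135048676 there, with an enrichment of 5.40, ranked 11 of 9170, and in the authors' list a log2 change of -0.96 (p = 0.00427, FDR 0.849). Both lists thus place a strongly enriched peak at the same start, and the change with periplocin corresponds to 0.513-fold of control.

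At the second locus the peak chr6:135110675-135111051 was identical in both lists. Its enrichment was 8.19 in the bufalin list and 8.04 in the periplocin list, ranked 8 and 5 in the respective list. The log2 change in the authors' lists was -1.90 with bufalin (p = 0.00138, FDR 0.668) and -1.98 with periplocin (p = 0.000407, FDR 0.310). As folds of control these are 0.268 and 0.253. A further peak there, chr6:135112011-135112793, was in the periplocin list only, with an enrichment of 3.58 and in the authors' list a log2 change of -3.16 (p = 0.000126, FDR 0.187), or 0.112-fold of control. By size of change it ranked 6 of 9170 and by p also 6.

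The loci share a structure, which limits what their separate values mean. The peak at the first locus has blocks of 273 and 26 bases in the bufalin list, split by a gap of 227 bases, and the peak at the second has blocks of 124 and 26 bases, split by a gap of 227 bases too. Both edges of the gap lie 62424 bases apart between the loci. Reads of near-identical copies may be placed at either, so the values of single loci are uncertain, and how reads were split was not tested. RefSeq lists 16 pseudogenes named after Hsp90aa1.

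The peaks at the second locus also stand in a closing block of each list, 26 peaks where the order of chromosomes starts over. Changes in that block were wide: the median absolute log2 change was 0.51 with bufalin and 0.56 with periplocin, beside 0.12 and 0.12 in the rest of each list. In the block 38.5% and 42.3% of peaks were past 1 in size, beside 0.620% and 0.634% elsewhere. The part of this in the Hsp90aa1 values was not tested. Without the block, the Hsp90aa1 peak of the first locus remains, at -0.29 and -0.96, and member peaks with an unadjusted p under 0.05 number 3 with bufalin and 3 with periplocin in place of 4 and 5.

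**Figure D3:**
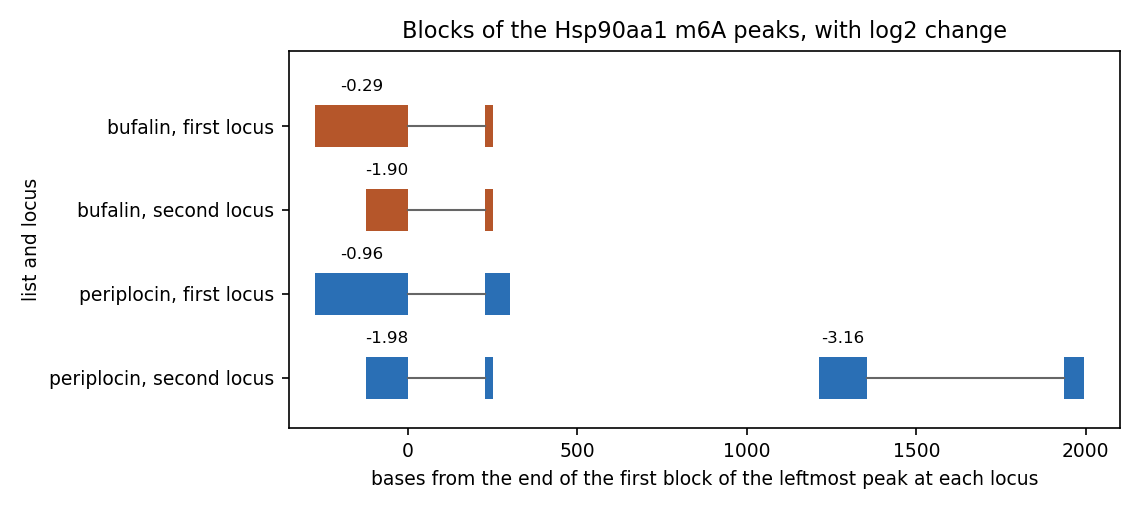
Blocks (bars) and gaps (lines) of the Hsp90aa1 m6A peaks at both loci, drawn to scale in bases from the end of the first block of the leftmost peak at each locus, in genome direction, with the log2 change above each peak. Each leftmost peak has a gap of 227 bases, and the periplocin list has a further peak at the second locus with a change of -3.16.

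**Figure D4:**
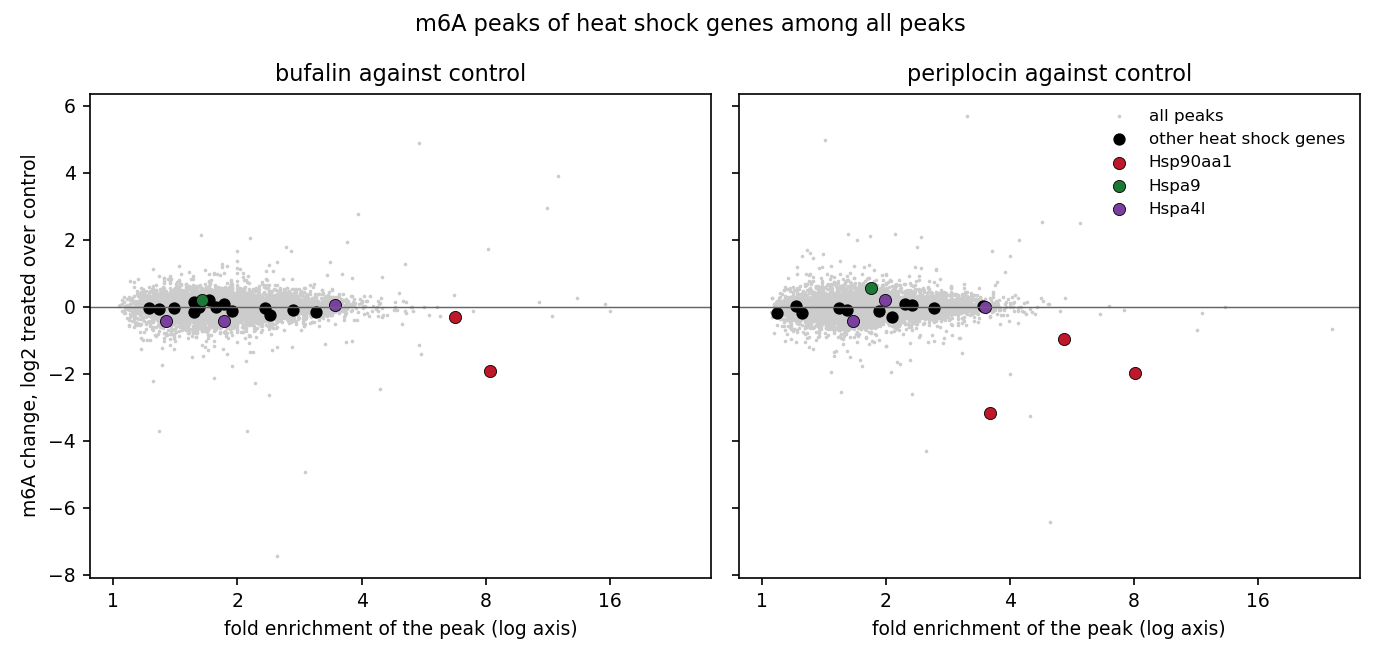
Fold enrichment (log axis) against m6A change (log2, treated over control) of all peaks in grey and of the heat shock genes in colour or black, bufalin on the left and periplocin on the right. The Hsp90aa1 peaks, in red, lie below 0, most of them far to the right at up to 8.19-fold enrichment and 1 periplocin peak at 3.58 beside other members, while the remaining heat shock peaks lie within -0.44 and 0.57.

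Hsp90ab1, the paralog of Hsp90aa1, had 2 peaks at the same positions in both lists and next to no change. At chr9:17819949-17820616 the enrichment was 2.33 in the bufalin list and 2.31 in the periplocin list, and the log2 changes were -0.03 and 0.06. At chr9:17821830-17821930 the enrichment was 1.61 and 1.54 and the changes -0.01 and -0.02. RefSeq lists 23 pseudogenes named after Hsp90ab1, so its reads may be shared with copies as well, which was not measured.

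Hspa9 had the highest m6A change of the members in both lists. The bufalin peak chr18:27732454-27734090, of 3 blocks, had an enrichment of 1.64 and in the authors' list a log2 change of 0.21 (p = 0.000263, FDR 0.525), which ranked 5 of 9866 by p. By size of change the same peak ranked 2778 and by enrichment 6521. The periplocin peak chr18:27732195-27734090 shared its end and had in the authors' list a log2 change of 0.57 (p = 0.0234, FDR of 1) at an enrichment of 1.84. Neither passed the FDR, and the RNA of Hspa9 was near control, as given above.

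Hspa4l had 3 peaks, at identical positions in both lists. The middle one, chr2:127658477-127664885, had in the authors' lists log2 changes of -0.41 with bufalin (p = 0.0275) and -0.44 with periplocin (p = 0.0490), both at an FDR of 1. The most enriched, chr2:127664984-127676414, spread over 6 blocks with an enrichment of 3.44 and 3.48 and changes of 0.04 and -0.01. At the first, chr2:127632150-127634644, the changes were -0.43 and 0.20. Within Hspa4l the values thus ranged from -0.43 to 0.04 with bufalin and from -0.44 to 0.20 with periplocin.

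Hspa8 had a peak on chromosome 8, chr8:44991925-44992665, of 3 blocks, with an enrichment of 2.72 and 2.62 and log2 changes of -0.09 with bufalin and -0.04 with periplocin. A peak under the same name lay on chromosome 11, at chr11:13500463-13500963 in the bufalin list and chr11:13500763-13500963 in the periplocin list, in a single block. Its changes were -0.25 and -0.29, at unadjusted p-values of 0.219 and 0.152. RefSeq lists 33 pseudogenes named after Hspa8, and reads at the chromosome 11 peak may come from copies, which was not measured.

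The other members showed small changes. Dnajb1 was enriched 3.11-fold and 3.44-fold at chr19:24748948-24749046, with log2 changes of -0.16 with bufalin and 0.02 with periplocin. The 4 Hsph1 peaks with bufalin ran from -0.13 to -0.03 and the 3 with periplocin from -0.17 to 0.01, with a highest enrichment of 1.94 and 1.92 at chr12:6323429-6323529. Bag3 had 2 peaks in the bufalin list, at 0.00 and 0.09, where the periplocin list had 1 longer peak, chr1:199964102-199964696, at 0.08.

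Zfand2a, the member whose RNA was highest over control with periplocin, had 2 peaks per list. In the bufalin list the most enriched was chr12:17261082-17261282 at 1.71, with a change of 0.19, and chr12:17263128-17263228 had a change of 0.16. In the periplocin list the most enriched was chr12:17261182-17261282 at 1.61, with a change of -0.10, and chr12:17261881-17261980 had a change of -0.19. Their unadjusted p-values in the authors' list were 0.986 and 0.783. The most enriched peaks of the lists share bases, whereas the other peaks are different sites. None of its peaks had an unadjusted p of the change under 0.05.

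Over all members the median log2 m6A change was -0.05 with bufalin and -0.07 with periplocin, beside medians of -0.02 and -0.01 over all peaks. Below 0 were 14 of 20 and 12 of 18 member peaks, beside 5405 of 9866 and 4794 of 9170 of all peaks. Without Hsp90aa1 the median of the members was -0.04 and -0.02. Of the other 83 chaperone genes, 54 had a peak in the bufalin list and 48 in the periplocin list. Their peaks numbered 94 and 86, with a median of -0.02 in each list and changes from -0.45 to 0.54 and from -0.41 to 0.63. Their highest enrichment was 3.25 in each list. At the FDR 0 passed in each list, beside 0.0304% of all peaks with bufalin and 0.0436% with periplocin. With an unadjusted p of the change under 0.05 there were 1 and 2 peaks, beside 3.04% and 3.37% of all peaks. Every Hsp90aa1 peak was more enriched than any peak of these other chaperone genes. All Hsp90aa1 peaks but the bufalin peak at the first locus had a change below the range of those genes. This is a description of single values, with no test.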

How the data were processed

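MeRIP-seq of 18 H9c2 samples, grouped as labelled, was compared by the authors. The submitters' processing notes name HISAT2, StringTie, DESeq and rn6. Not given in the sources used here were versions, the peak caller and the library kind behind the expression tables. The deposited signal of a gene is its mean count divided by size factors. The log2 fold changes, standard errors, Wald scores and p-values come from DESeq2 as run by the authors, per the file headers. Peak fold enrichment is a deposited ratio, and the log10 values are those of deposited p and FDR, per the file headers, and were turned back into p and FDR in both lists.

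Signs came from the fold changes: the Wald score has the opposite sign in all 12913 periplocin genes. Control means of both tables were within 1% of each other for 10608 of 10608 genes once an offset of 0.05 (log2) was taken off, if each change was read as treated over control. Calls used the deposited adjusted p or FDR under 0.05. Folds have 95% Wald intervals. Re-adjustment (Benjamini-Hochberg), overlap and motif code was tested on simulated data. Peak positions are rn6, 1-based; promoter sequences are RefSeq GRCr8. All 10 members matched the RefSeq gene table. Members and lists were chosen with earlier results of these data known. Named genes were all members, called list genes and a fixed set of partners, and list genes at an unadjusted p under 0.05, named after their values were seen (1 is not reported here, and the counts include it); for peaks, the most enriched per member, with the others by count and range except where unadjusted p was under 0.05 or a paralog was compared. Without an rn6 genome, positions of peaks along transcripts and their sequences were not analysed here. Alternatives covered thresholds, the genes adjusted over, a mean count of at least 10, an enrichment of at least 2, overlap, and the closing block of the peak lists. Scripts ran on Python 3.11.15 with pandas 2.3.3, numpy 2.4.6 and matplotlib 3.10.9.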

Additional observations from a re-analysis of the deposited data

How the results depend on the processing

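No paired analysis was possible because the files hold comparisons and no values per replicate, and replicates could not be left out either. Counts of calls moved with the threshold only: at an adjusted p under 0.01 the periplocin members fell from 2 to 1, and at 0.1 the other chaperone genes called were 1 with bufalin and 2 with periplocin, in place of 0. Shares of all genes called at 0.01 and 0.1 were not worked out, so these counts have no background beside them. Adjusting p over all genes with one, or over those with a mean of at least 10, left the counts of RNA calls as they were. No peak of a member or of the other chaperone genes was called at an FDR under 0.1 or 0.01, at an enrichment of at least 2, or without the closing block, an alternative chosen after seeing the data; that block cut the periplocin member peaks with an unadjusted p under 0.05 from 5 to 3. Member peaks of the bufalin list shared with the periplocin list were 17 at 1 base and 14 at 50% of both peaks. The share over all peaks was not worked out for either rule.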
